A study of Homo sapiens with 2 samples.

Results

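The genes described here encode the protein components of the cytosolic ribosome. Members were found by symbol, as RPL or RPS followed by a number with an optional letter or L suffix, together with RPLP0, RPLP1, RPLP2 and RPSA, and pseudogenes and the S6 kinases were left out. The rule found 81 members among the 17397 genes listed, 49 of the large 60S subunit and 32 of the small 40S subunit. All 81 were among the 13075 genes compared, which had at least 1 fragment per kilobase of transcript, scaled to the number of mapped fragments (FPKM), in 1 library or both. The rule used symbols alone and no expression value.

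RNA-seq was performed on H1 cells, a human embryonic stem cell line, at day 4 of hematopoietic differentiation. One library came from wild-type H1 (WT) and 1 from H1 with both copies of MEIS2, a homeobox transcription factor gene, disrupted (MEIS2-/-). Cells of both genotypes received 50 ng/ml activinA with 40 ng/ml BMP4 during the first 2 days, then 40 ng/ml VEGF with 50 ng/ml bFGF during the next 2 days, in Custom mTeSR1 medium. The MEIS2-/- cells were made by lentiviral CRISPR-Cas9 with a guide against a MEIS2 exon and expanded as clones, and the labels do not say which homozygous clone was sequenced, so effects of the genotype and of the clone cannot be told apart. With 1 library per genotype there is no replicate error, no test was possible, and each fold below compares these 2 libraries. A bulk library also cannot tell apart fewer cells of a type and less RNA per cell.

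Ribosomes translate mRNA into protein. The 40S subunit binds the mRNA and decodes it, and the 60S subunit joins amino acids and passes the growing chain through an exit tunnel. The proteins are needed in equal numbers, apart from the paired acidic proteins of the stalk, and their genes lie scattered over many chromosomes. Their mRNAs begin with a run of pyrimidines (C and T in the DNA) at the 5′ end, the terminal oligopyrimidine or TOP motif, through which the mTOR pathway controls their translation. Loss of 1 copy of many of these genes impairs red cell production in Diamond-Blackfan anemia.

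The bases around the start site are shown first because the TOP run is the sequence feature that the family shares. The members were matched by gene number to a RefSeq table of promoters (GRCh38.p14), which held 64 of the 81 members with 79 start sites. Each sequence below runs 5′ to 3′ on the strand of the gene, with 15 bases before the annotated start and 15 from it. Capitals mark the run of C and T that touches the 5 bases on either side of the start. The 10 genes shown are, among the members with a single listed start, the 5 with the highest log2 ratio of MEIS2-/- to WT FPKM (RPS26, RPS7, RPS6, RPL22 and RPL10A) and the 5 with the lowest (RPL24, RPS27, RPLP2, RPL28 and RPS29).
RPS26, chr12:56041903-56041932, plus strand: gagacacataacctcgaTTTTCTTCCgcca
RPS7, chr2:3575245-3575274, plus strand: gtttccgCCCTCCTCCTCgcgctgtttccg
RPS6, chr9:19380222-19380251, minus strand: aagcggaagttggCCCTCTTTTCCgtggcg
RPL22, chr1:6199581-6199610, minus strand: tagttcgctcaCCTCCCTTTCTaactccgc
RPL10A, chr6:35468386-35468415, plus strand: tgcgcaagacatgctagTCTCTTTTCCggt
RPL24, chr3:101686704-101686733, minus strand: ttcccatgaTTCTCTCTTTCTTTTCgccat
RPS27, chr1:153990747-153990776, plus strand: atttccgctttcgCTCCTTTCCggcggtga
RPLP2, chr11:809952-809981, plus strand: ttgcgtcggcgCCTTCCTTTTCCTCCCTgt
RPL28, chr19:55385917-55385946, plus strand: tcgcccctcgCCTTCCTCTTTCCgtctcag
RPS29, chr14:49598696-49598725, minus strand: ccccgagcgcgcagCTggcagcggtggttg

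In these 10 windows the run ranged from 2 bases in RPS29 to 17 bases in RPLP2. RPS29 was the exception, and the other 9 genes had runs of 9 bases or more, 5 of them in the genes with the highest ratios and 4 in those with the lowest. Over the 79 start sites of members the median run was 11 bases, against 4 bases over all 35116 promoters in the table and 4 over the 15483 start sites of other compared genes. A run of at least 8 bases was found at 53 member starts (67.1%), against 11.2% of all promoters. The annotated start base was a C at 52 member starts (65.8%), against 14.7% of all promoters. The 50 genes with a run of at least 8 bases had a median of −0.06 and the 14 matched genes without one a median of −0.001 for the log2 fold change, which is the log2 ratio of MEIS2-/- to WT with 0.1 FPKM added to both.

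Further promoter letters were searched on both strands from 250 bases before to 50 bases after each start. CCGGAAG, the core letters bound by ETS-family factors, was present at 27 member starts (34.2%) and in 10.3% of all promoters. AAGATGGC, letters of the YY1 motif, was present at 6 member starts (7.59%) and in 2.89% of all promoters. TATAAA, the TATA box, was at 5 member starts (6.33%) and in 11.5% of all promoters, and GGGCGG, a GC box bound by SP factors, at 44 (55.7%) and in 45.0%. Among start sites of other compared genes the shares were 16.3% for CCGGAAG, 4.55% for AAGATGGC, 6.21% for TATAAA and 66.1% for GGGCGG. The last 3 letters of the ETS motif are the first 3 of the YY1 motif, so 1 stretch of promoter can hold both, and a match describes the sequence only.

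Values that bear on the libraries as a whole were as follows. MEIS2 was at 10.85 FPKM in the WT library and at 3.44 FPKM in the MEIS2-/- library (log2 fold change −1.63). Of the 13075 compared genes 7750 (59.3%) were higher and 5311 lower in MEIS2-/- cells. All 6 endothelial markers examined were lower in MEIS2-/- cells, with a summed level of 488 FPKM in WT and 106 in MEIS2-/-. Of 6 hematopoietic markers 4 were lower (sums over all 6 of 139 and 58.1 FPKM), and the other 2, PTPRC and RUNX1, had higher values but stayed below 1 FPKM in both libraries. Of 3 mesoderm markers 1 was lower and 2 higher (228 and 150 FPKM), and all 3 pluripotency markers were higher (303 and 1525 FPKM). None of these markers was at 0 in either library, although the lowest hematopoietic marker in WT was at 0.45 FPKM and the pluripotency gene SOX2 at 0.09 and 0.15 FPKM. The part of these marker differences in the ribosomal protein values was not tested.

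Ribosomal protein mRNAs were among the most abundant in both libraries. Their FPKM summed to 79065 in WT and 76369 in MEIS2-/-, which is 17.7% and 17.3% of the FPKM of all listed genes. Among the 100 genes with the highest FPKM were 54 members in WT and 58 in MEIS2-/-, and all 54 of the WT library were again there in MEIS2-/-. RPS2, a 40S protein at the site where mRNA enters, was the most abundant gene of each library, at 3380.21 FPKM in WT and 3142.44 FPKM in MEIS2-/-. Of the 10 most abundant genes 4 in WT and 6 in MEIS2-/- were members.

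Although the proteins are used in equal numbers, the levels per length of transcript were not equal. RPL3L, RPL39L, RPS27L and RPL36AL are second copies of other members and are described apart. The other 77 ranged in WT from 126.48 FPKM for RPL22 to the level of RPS2, a 26.7-fold range with a median of 905 FPKM, and 59 lay within 2-fold of that median. In MEIS2-/- cells they ranged from 143.39 FPKM for RPL37 upwards, a 21.9-fold range with a median of 885 FPKM, and again 59 lay within 2-fold of the median. In each library 33 members had at least 1000 FPKM. Of the 77 members 76 had an annotated transcript length. Over those 76, the mean FPKM on the log2 scale and the length had a Pearson r of −0.47 and a Spearman rho of −0.17, given as a description. FPKM divides by transcript length, and the part of length in these levels and their range was not tested. FPKM of a gene with short transcripts or many near-identical pseudogenes can also depend on how its reads were assigned, which was not tested.

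Among the highest members by mean FPKM after RPS2 were RPL13A, RPL8 and RPLP0. RPL13A, a 60S protein also known from the control of inflammatory mRNAs, had 2588.24 FPKM in WT and 2409.18 FPKM in MEIS2-/-. RPL8, a 60S protein near the peptidyl transferase center, had 2277.13 and 2320.35 FPKM. Of these 4 genes RPL8 alone had the higher value in MEIS2-/- cells, at a log2 fold change of 0.03, and its sign turned when the libraries were rescaled to the median of all genes. At the other end, RPL3L, RPL39L and RPS27L were followed by RPL22 and RPL37. RPL22, a 60S protein at the outer surface, was at 126.48 and 146.10 FPKM, and RPL37 at 155.00 and 143.39 FPKM. Their annotated transcripts have 2078 and 7686 bases, and the part of length in these levels was not tested.

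The order of the members differed little between the libraries. The log2 FPKM of the 81 members in WT and in MEIS2-/- correlated with a Pearson r of 0.996 and a Spearman rho of 0.986, given as a description over genes measured in the same 2 libraries. Without the 4 second copies, which widen the range, r was 0.990 and rho was 0.984. Ranked by FPKM among all listed genes, the median member moved by 6 places.

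**Figure D1:**
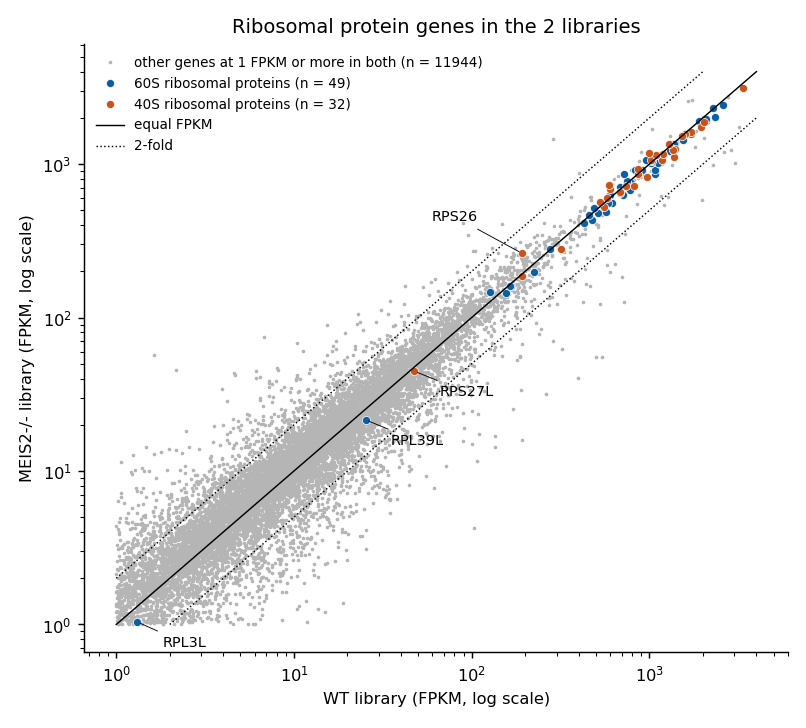
FPKM of each gene in the WT library (x axis, log scale) and the MEIS2-/- library (y axis, log scale), with 60S members in blue, 40S members in orange and 11944 other genes with at least 1 FPKM in each library in grey. Solid and dotted lines mark equal FPKM and a 2-fold difference, and all 81 members lie between the dotted lines.

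None of the 81 members differed by 2-fold or more between the libraries, where 7.97% of all compared genes were at least 2-fold lower and 7.84% at least 2-fold higher in MEIS2-/- cells. The median log2 fold change of the members was −0.05, with quartiles of −0.12 and 0.04. The extremes were −0.31 for RPL3L, which was close to the 1 FPKM filter, and 0.45 for RPS26. At a threshold of 1.2-fold, chosen after the values were seen, 3 members were lower (RPL3L, RPL24 and RPS27) against 24.7% of all compared genes, and 2 were higher (RPS7 and RPS26) against 38.3%. The remaining 76 members (93.8%) differed by less than 1.2-fold, as did 37.1% of all compared genes.

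A log2 fold change above 0 was found for 28 members (34.6%), and for 59.3% of all compared genes. The direction of single members depended on the scaling of the libraries. A total of 8092 genes reached 5 FPKM in each library, with a median of 0.12, and relative to it 72 of the 81 members (88.9%) were lower and the median of the members was −0.17. With deposited FPKM and under each of 3 rescalings, 49 members were below 0 and 9 above 0, whereas 23 turned sign under at least 1 of them. Among the 9 were RPL10A, RPL6, RPS20, RPL22, RPS6, RPL23, RPS7 and RPS26.

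**Figure D2:**
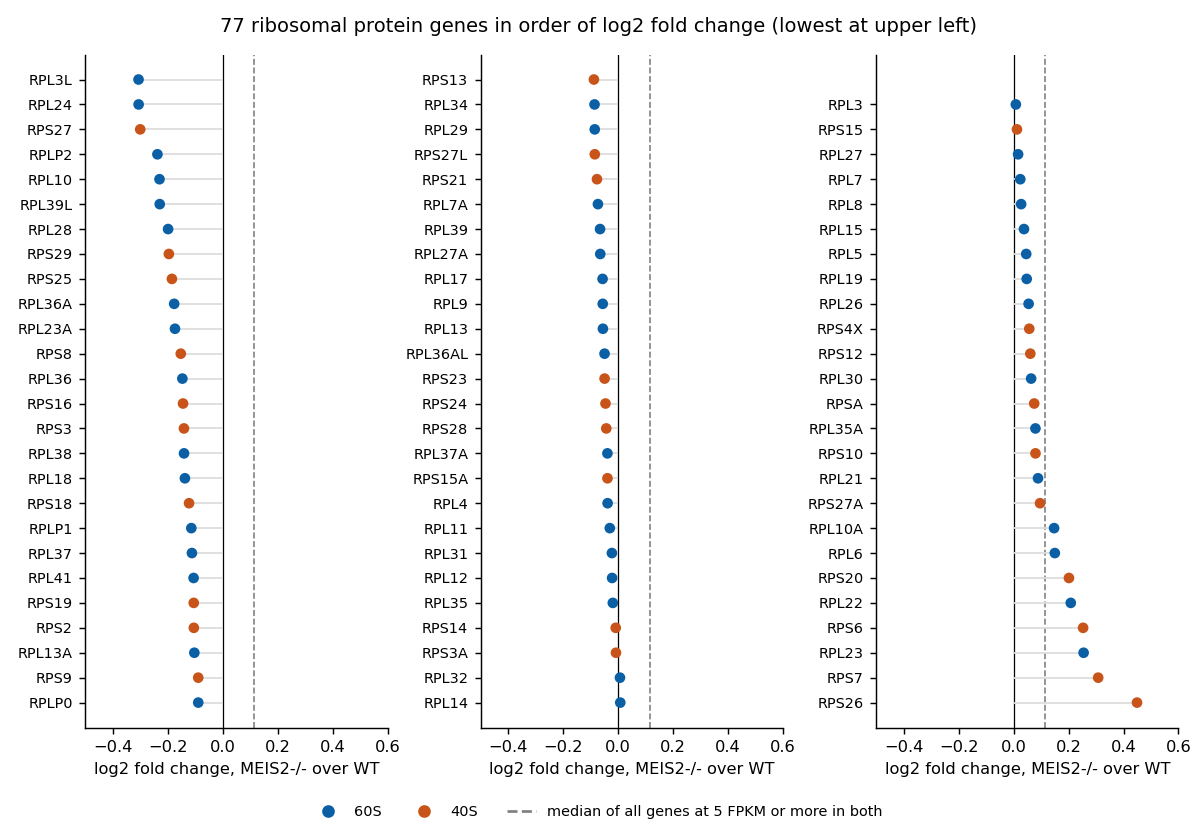
Log2 fold change of 77 of the 81 members (x axis, MEIS2-/- over WT), ordered from the lowest at the upper left to the highest at the lower right, with 60S members in blue and 40S members in orange. The dashed line marks the median of the genes with at least 5 FPKM in each library (0.12), and 8 of the members shown lie to the right of it.

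The members were spread less than other abundant genes. The SD of the log2 fold change over the 81 members was 0.138, against 0.490 over 529 other genes with at least 100 FPKM in both libraries and 0.820 over all 12994 other compared genes. Of the 529 other abundant genes, 27 were at least 2-fold lower and 7 at least 2-fold higher, and 58.2% were within 1.2-fold. The 46 other genes with at least 500 FPKM in both libraries, the level at which most members lie, had a median of −0.05, an SD of 0.582 and 7 genes at least 2-fold lower. Among them were ALDOA, a glycolytic enzyme, with a log2 fold change of −1.76, and VIM, the intermediate filament protein of mesenchymal cells, with −1.59. GSTP1, a glutathione transferase, had the highest log2 fold change of the 46, at 0.71. These 3 genes were chosen as extremes after their values were seen.

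**Figure D3:**
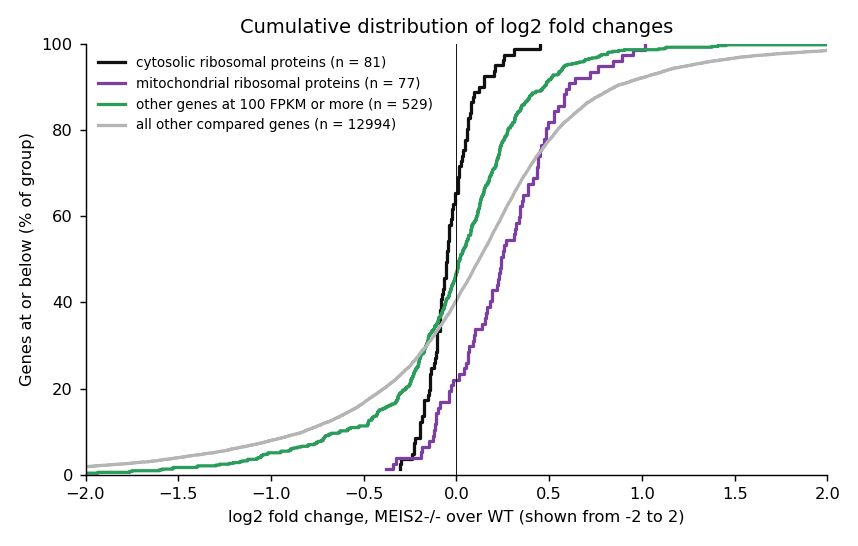
Cumulative share of genes (y axis, percent) at or below each log2 fold change (x axis, MEIS2-/- over WT, shown from −2 to 2) for cytosolic ribosomal proteins, mitochondrial ribosomal proteins, other genes with at least 100 FPKM in each library, and all other compared genes. The line of the 81 cytosolic members is the steepest, running from −0.31 to 0.45.

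RPS26 stood furthest from the other members. The protein lies at the mRNA exit side of the 40S subunit. Its FPKM was 191.87 in WT and 261.99 in MEIS2-/- (log2 fold change 0.45), 36.5% higher. The next member lay 0.14 lower on the log2 scale, the widest gap between neighbors in the order. RPS26 also has 59 annotated pseudogenes, and reads shared with them could have been assigned in more than 1 way.

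RPS7, a 40S protein involved in rRNA processing, had 590.70 FPKM in WT and 731.16 FPKM in MEIS2-/- (log2 fold change 0.31). RPL23, a 60S protein that binds MDM2 when free, had 719.82 and 858.77 FPKM (0.25). RPS6, the classical phosphorylation target of the S6 kinases, had 994.22 and 1184.67 FPKM (0.25). RPL22 was at 0.21 on the log2 scale and RPS20, a protein of the 40S head, had 596.46 and 685.78 FPKM (0.20). RPS26 and these 5 genes were above 0 under each scaling tried.

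At the low end, RPL3L and RPL24 were equal to 2 decimals at −0.31. RPL3L was close to the 1 FPKM filter, at 1.31 FPKM in WT and 1.04 FPKM in MEIS2-/-, so its value depends on the amount added to each FPKM. RPL24, which sits at the interface between subunits, had 1072.20 FPKM in WT and 867.06 FPKM in MEIS2-/-. RPS27, a zinc-binding 40S protein, had 1367.35 and 1110.20 FPKM (−0.30). RPLP2, of the acidic stalk, had 1077.07 and 913.32 FPKM (−0.24). RPL10, one of the last proteins to join the 60S subunit, had 569.51 and 485.49 FPKM (−0.23), and RPL39L lay at the same log2 value. All 6 were below 0 under each scaling tried.

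The 2 subunits had similar values. The median log2 fold change was −0.06 (SD 0.121) over the 49 genes of the 60S subunit, with 17 above 0, which summed to 45065 FPKM in WT and 43493 in MEIS2-/-. The median was −0.05 (SD 0.162) over the 32 genes of the 40S subunit, with 11 above 0, which summed to 34000 and 32876 FPKM. The 60S genes were thus at 10.1% and 9.87% of all FPKM, and the 40S genes at 7.60% and 7.46%. FAU, which encodes a 40S protein fused to a ubiquitin-like protein, is not found by the symbol rule. FAU had 465.90 FPKM in WT and 482.51 in MEIS2-/- (0.05), with its sign turned to −0.06 when the libraries were rescaled to the median of all genes.

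The P stalk of the 60S subunit recruits the translation factors that hydrolyze GTP. Its 4 genes were all lower in MEIS2-/- cells on the deposited scale, with a median of −0.10. On that scale 53 of all 81 members and 5311 of the 13075 compared genes were below 0. RPLP0, the base of the stalk, had 2092.31 FPKM in WT and 1966.86 FPKM in MEIS2-/- (−0.09). RPLP1, the partner of RPLP2, had 2071.57 and 1913.54 FPKM (−0.11). RPL12, next to the stalk base, had 1026.06 and 1010.37 FPKM (−0.02), with its sign turned when each library was rescaled to the same sum. RPLP1 was at about the level of RPLP0 and RPLP2 at about the level of RPL12 in both libraries.

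RPL5 and RPL11 bind the 5S rRNA, and the complex of the 3 inhibits MDM2 when ribosome assembly is disturbed. RPL5 had 683.00 FPKM in WT and 704.92 FPKM in MEIS2-/- (0.05). RPL11 had 906.68 and 887.66 FPKM (−0.03). The pair therefore differed between the libraries by less than 5% each, and the sign of RPL5 turned when the libraries were rescaled to the median of all genes.

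The list of the exit tunnel holds 8 genes, which encode proteins that line or surround the end of the exit tunnel, where the growing chain leaves the ribosome. Their log2 fold changes ran from −0.17 to 0.05 with a median of −0.03. Of the 8 genes 2 were above 0, against 34.6% of all 81 members and 59.3% of all compared genes. RPL23A, a docking site of targeting factors, was the lowest, at 710.53 FPKM in WT and 629.82 FPKM in MEIS2-/-. RPL26 was the highest, at 743.06 and 771.60 FPKM, and RPL19, at 1008.44 and 1042.14 FPKM, was the other above 0. Both turned below 0 when the libraries were rescaled to the median of all genes. RPL4, which reaches into the tunnel wall, had 1167.70 and 1136.87 FPKM (−0.04), and RPL17 had 909.69 and 874.49 FPKM (−0.06). RPL39 (587.31 and 560.99 FPKM), RPL31 (899.04 and 884.83 FPKM) and RPL35 (1373.04 and 1354.50 FPKM) lay between −0.07 and −0.02.

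In the 40S subunit, 13 listed genes encode proteins of the head and of the channel that holds the mRNA. Their median was −0.05 with 5 above 0, where 34.6% of all members and 59.3% of all compared genes were above 0. The 13 genes ranged from RPS29, a small zinc-binding protein, at 319.52 FPKM in WT and 278.88 FPKM in MEIS2-/- (−0.20), to RPS20 at 0.20. RPS3, which helps to open the mRNA entry and also acts in DNA repair, had 1178.52 and 1068.57 FPKM (−0.14). RPS16 had 1361.85 and 1231.96 FPKM (−0.14), and RPS18, which contacts the 60S subunit from the head, had 1719.76 and 1579.55 FPKM (−0.12). RPSA, also known as the laminin receptor, had 1284.40 and 1352.71 FPKM (0.07), and RPS12 had 1020.41 and 1064.17 FPKM (0.06). RPS23, which contacts the decoding center, had 193.07 and 186.54 FPKM (−0.05), one of the lowest levels in the family. Its annotated transcript has 3437 bases, and the part of length in this level was not tested.

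A set of 19 members is known for mutations in Diamond-Blackfan anemia. Their median log2 fold change was −0.02, and 9 of the 19 were above 0, against 28 of all 81 members. Their summed FPKM in MEIS2-/- was 98.7% of that in WT. RPS19, the gene most often affected in patients, had 2019.04 FPKM in WT and 1876.46 FPKM in MEIS2-/- (−0.11). RPL35A had 596.25 and 629.90 FPKM (0.08), and RPS10 had 1084.49 and 1145.83 FPKM (0.08). RPS24, at 681.00 and 659.50 FPKM, RPS28, at 1194.39 and 1158.99 FPKM, and RPS15A, at 742.04 and 722.17 FPKM, lay between −0.05 and −0.04. RPL15, at 455.92 and 467.93 FPKM, and RPL27, at 1030.79 and 1042.36 FPKM, lay between 0.02 and 0.04, and RPL18, at 1118.25 and 1016.40 FPKM, was at −0.14. RPS26 and RPS27, at the top and near the bottom of the whole family, both belong to this list, as do RPS7, RPS29, RPL5, RPL11, RPL26, RPL31 and RPL35 with the values above. RPS26 and RPS7 were above 0 under each scaling tried.

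Beside these genes, early blood genes had far larger differences. Of a list of 10 erythroid and early blood genes 6 were compared, with a median log2 fold change of −1.06, and 3 were at least 2-fold lower and 1, the embryonic globin HBE1, at least 2-fold higher. Among the 19 Diamond-Blackfan genes the widest difference was that of RPS26, 36.5%, and 2 were at least 1.2-fold higher (RPS26 and RPS7) and 1 at least 1.2-fold lower (RPS27).

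The second copies were all lower in level than the genes they resemble. RPL3L, a form of RPL3 restricted to muscle and heart, was at 1.31 FPKM in WT and 1.04 in MEIS2-/-, while RPL3 was at 1890.90 and 1901.20 FPKM. RPL39L, a form abundant in testis, was at 25.27 and 21.54 FPKM and made up 4.13% and 3.70% of the summed FPKM of RPL39 and RPL39L. RPS27L, a copy of RPS27, was at 47.47 and 44.74 FPKM, with RPS27 28.8-fold above it in WT and 24.8-fold in MEIS2-/-. RPL36AL was the only second copy near its partner, at 165.06 and 159.46 FPKM against 223.88 and 198.03 FPKM for RPL36A, or 42.4% and 44.6% of the sum. RPL10L was not analysed here.

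A further 3 copies carry symbols outside the rule and were all higher in MEIS2-/- cells on the deposited scale, as were 59.3% of all compared genes. RPL22L1, which can replace RPL22, was at 8.63 FPKM in WT and 12.66 FPKM in MEIS2-/- (0.55), and the ratio of RPL22 to it was 14.7 and 11.5. RPL7L1 was at 26.76 and 31.79 FPKM (0.25). RPL26L1 was at 24.04 and 25.07 FPKM (0.06), and the ratio of RPL26 to RPL26L1 was 30.9 and 30.8. RPL26L1 turned below 0 when the libraries were rescaled to the median of all genes. Reads from such near copies may be exchanged between partners.

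Base composition moved with the differences to a small extent. Over the 80 members with a transcript in GENCODE 29, the log2 fold change and the GC content of the transcript had a Pearson r of −0.33 and a Spearman rho of −0.35, given as a description over genes of the same 2 libraries. Over 521 other genes with at least 100 FPKM the values were −0.08 and −0.11, and over 12755 other compared genes −0.16 and −0.16. Among the 77 members without second copies, of which 76 had a transcript, the 26 with the lowest GC content (42.1% to 47.8%) had a median of −0.02 with 12 above 0, and the 25 with the highest (52.3% to 62.7%) had a median of −0.09 with 5 above 0. The 25 between them had a median of −0.04 with 10 above 0. Other genes with at least 100 FPKM were divided at the same GC limits. From lowest to highest GC content, their medians were 0.05 (59 of 100 above 0), 0.11 (56 of 80) and −0.02 (161 of 341). The part of GC content in any single difference was not tested.

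The chromosome with the most members was 19, with 12 genes. Their median log2 fold change was −0.14, and 11 of the 12 were below 0, against 53 of all 81 members. The highest was RPS15, at 1519.72 FPKM in WT and 1532.34 FPKM in MEIS2-/- (0.01), which turned below 0 when the libraries were rescaled to the median of all genes. The 12 summed to 18172 FPKM in WT and 16670 FPKM in MEIS2-/-, or 91.7%. RPL28, a 60S protein, had 774.33 and 674.53 FPKM (−0.20). The 69 members on other chromosomes had a median of −0.04. Other genes on chromosome 19 were also lower than genes elsewhere, with a median of −0.02 over 993 compared genes there and 0.13 over 12001 on other chromosomes. Of these 993 genes 48.9% were above 0, against 60.3% of the genes on other chromosomes, and 13.2% were at least 2-fold lower, against 7.59%. The difference was smaller among abundant genes. Among the 76 other genes there with at least 100 FPKM in both libraries 38 (50.0%) were above 0, with a median of −0.002. Over all 529 other genes at that level, on any chromosome, 53.1% were above 0, with a median of 0.02. All 12 members on chromosome 19 were among the 25 with the highest GC content. The other 13 of those 25 had a median of −0.06 with 4 above 0. The part of chromosome and GC content in these differences was not tested.

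Transcript length and pseudogenes were also set beside the differences. The log2 fold change and the length had a Pearson r of −0.03 and a Spearman rho of 0.05 over 80 members. The number of annotated pseudogenes per gene, which was highest for RPL21 with 137, RPL23A with 95, RPL7A with 80 and RPSA with 74, had an r of 0.19 and a rho of 0.30 with the log2 fold change over 77 members. RPL21 had 484.49 FPKM in WT and 515.19 FPKM in MEIS2-/- (0.09), RPL7A had 1665.29 and 1582.16 FPKM (−0.07).

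The mitochondrial ribosome is built from other proteins, and its genes had different values. Over the 77 mitochondrial ribosomal protein genes the median log2 fold change was 0.24 with an SD of 0.303, 60 of them (77.9%) were above 0, against 59.3% of all compared genes, and 51 (66.2%) were above the median of the genes with at least 5 FPKM in each library. Their summed level was 2487 FPKM in WT and 2992 FPKM in MEIS2-/-, far below that of the cytosolic genes. One, MRPL20, was at least 2-fold higher, at 40.91 and 82.79 FPKM (1.02), and the lowest was MRPL2, at 29.44 and 22.63 FPKM (−0.38). By 1.2-fold, 36 of the 77 were higher and 3 lower, where 38.3% of all compared genes were higher and 24.7% lower.

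Genes that make ribosomes were mostly above 0. Of 51 ribosome biogenesis genes 48 (94.1%) were above 0, against 59.3% of all compared genes, with a median of 0.39. The 3 that were at least 2-fold higher (5.88%) were a smaller share than the 7.84% of all compared genes. UTP20, of the early 40S precursor, was at 1.77 FPKM in WT and 4.48 FPKM in MEIS2-/- (1.29). RRP9 was at 33.46 and 72.47 FPKM (1.11) and RRS1, of 5S particle assembly, at 13.66 and 28.68 FPKM (1.06). The lowest was NMD3, which exports the 60S subunit from the nucleus, at 16.44 and 12.88 FPKM (−0.35). FBL, the rRNA methyltransferase, was at 240.08 and 202.49 FPKM (−0.25).

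RNA polymerase I transcribes the rRNA precursor. The list of 19 genes holds its subunits, among them shared ones such as POLR2E, and transcription factors such as UBTF. Of the 19 genes 16 (84.2%) were above 0, against 59.3% of all compared genes, with a median of 0.35. UBTF, which opens the rRNA genes for transcription, was highest at 8.74 and 23.87 FPKM (1.44), and POLR1D, a subunit shared with RNA polymerase III, lowest at 89.94 and 75.67 FPKM (−0.25). UBTF and the 3 biogenesis genes that were at least 2-fold higher lay between 1.77 and 33.46 FPKM in WT.

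Translation factors and other genes with TOP mRNAs are thought to be controlled together with the ribosomal proteins. Over the 27 listed the median log2 fold change was 0.05 with an SD of 0.210, 17 (63.0%) were above 0, close to the 59.3% of all compared genes, and that median was below 0 when the libraries were rescaled to the median of all genes. Their extremes were EIF4A2, an RNA helicase, at 153.54 and 125.52 FPKM (−0.29), and EIF3K, a subunit of initiation factor 3, at 151.18 and 213.55 FPKM (0.50).

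The 22 genes listed as regulators of ribosomal protein mRNAs had a median of 0.33 and an SD of 0.573, and 16 (72.7%) were above 0, against 59.3% of all compared genes. MYC, a transcription factor that activates ribosome genes, was at 54.12 FPKM in WT and 20.22 FPKM in MEIS2-/- (−1.42), the lowest in the list. MYCN, of the same gene family, was higher in MEIS2-/- cells, at 21.39 and 37.25 FPKM (0.80), and was named after its value was seen. The 10 S6 kinase genes had a median of 0.43 with 7 (70.0%) above 0, from RPS6KA1 (−0.36) to RPS6KA2 at 3.80 and 8.93 FPKM (1.21). Levels of mRNA say nothing of the activity of these kinases or of the translation of their targets.

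**Figure D4:**
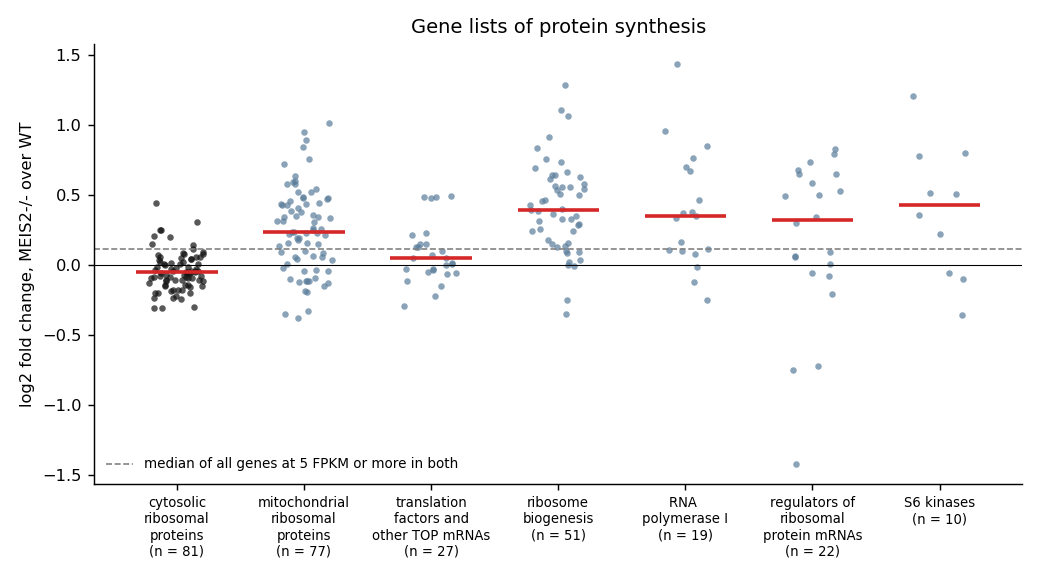
Log2 fold change (y axis, MEIS2-/- over WT) of each gene in 7 lists, with the red bar at the median of the list. The medians are −0.05 for the 81 cytosolic ribosomal proteins, 0.24 for mitochondrial ribosomal proteins, 0.05 for translation factors, 0.39 for ribosome biogenesis, 0.35 for RNA polymerase I, 0.33 for regulators and 0.43 for S6 kinases.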

How the data were processed

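RNA-seq of WT and MEIS2-/- H1 cells at day 4 was performed by BGI from Trizol-extracted RNA with TruSeq libraries. The authors deposited FPKM per gene and library, rounded to 2 decimals, and FPKM divides fragments by transcript length and mapped fragments. The submitters' processing notes name BWA, Bowtie, RSEM and hg19, with no role or version. Counting by strand is not given in the sources used here. Low FPKM values did not fall on whole-read steps, so depth is unknown and no counting error can be given.

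Gene numbers were matched to symbols for 17365 of 17397 genes. Lengths and GC content came from GENCODE 29 transcripts, matched by the RefSeq transcripts listed for each gene. Start sites came from RefSeq (GRCh38.p14), matched by gene number. Fold changes were computed as log2 of FPKM plus 0.1, for genes reaching 1 FPKM in either library (Python 3.11.15, pandas 2.3.3, numpy 2.4.6), after the code was tested on simulated data. Alternatives covered pseudocount, filter, scaling (equal sums, the median ratio of genes at 5 FPKM or more in both, and trimmed mean of M-values, TMM), fold threshold and membership.

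Values were named for the 6 highest and 6 lowest members by fold, the 5 highest and 5 lowest by level, members of the role lists, near copies, and the extremes of each other list. Members and lists were chosen with earlier results of these data known. A few genes that this rule names are not reported here.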

Additional observations from a re-analysis of the deposited data

How the results depend on the processing

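No paired analysis was possible because each genotype had 1 library, and for the same reason no replicate could be left out. Of 64 values from 12 settings, 58 kept their direction and stayed within 1.5 times the count, or within 0.1 on the log2 scale for the median. Many of the 58 could not have changed, so their number is no measure of robustness. The share of the members in all FPKM does not depend on pseudocount, filter or scaling. The sign of a member does not depend on the pseudocount, and all 81 members passed the 1 FPKM filter. The median log2 fold change of the members was −0.16 instead of −0.05 after rescaling to the median ratio and −0.15 after TMM. Members above 0 were 9 under either of these settings instead of 28, and 32 with equal library sums, since rescaling shifts every log2 value by nearly the same amount. At 1.2-fold, a threshold added after the data were seen, 3 members were lower and 2 higher, against 0 and 0 at 2-fold. The depth of the libraries is unknown, so no counting error can be given for any member.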

Other observations

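A set of 3 listed genes joins a ribosomal protein gene to its neighbor as readthrough transcripts and falls outside the symbol rule. They were singled out after their values were seen. RPS10-NUDT3 was at 1.26 FPKM in WT and 0.05 FPKM in MEIS2-/- (log2 fold change −3.18), while RPS10 was at 1084.49 and 1145.83 FPKM. RPL17-C18orf32 was at 1.76 and 4.88 FPKM (1.42), with RPL17 at 909.69 and 874.49 FPKM. RPL36A-HNRNPH2 was at 29.31 and 28.46 FPKM (−0.04), with RPL36A at 223.88 and 198.03 FPKM. Each shares sequence with the member, so reads can be divided between them in more than 1 way.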
